A study of Mus musculus with 12 samples.

Results

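The transcript levels of 43 genes that copy DNA in S phase were followed in duodenum and liver of male C57BL6/J mice that had received corticosterone (CORT) or vehicle (Veh). The genes were chosen by name for their role, with earlier results of these data known, and they encode the factors that license replication origins, the helicase, clamp, polymerases and ligase of the replication fork, the enzymes that supply nucleotides, the transcription factors that switch these genes on, and the proteins that rebuild chromatin behind the fork. All 43 symbols matched 1 row in each table, out of 55416 genes listed. Mice aged 8 weeks were injected under the skin each day for a further 8 weeks with CORT at 40 mg/kg, or with the DMSO, Tween-80 and water mixture that served as Veh. Each tissue had 3 CORT and 3 Veh libraries, labelled as biological replicates and 12 in all, with no genetic change in any group. The comparison addresses whether long exposure to a glucocorticoid moved the replication machinery in a tissue that divides all the time and in one that seldom does.

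DNA replication starts in G1, when the origin recognition complex, CDC6 and CDT1 load the MCM helicase on DNA as an inactive double ring. In S phase CDC45 and the GINS complex join the helicase, and the polymerases follow it, held on the DNA by the PCNA clamp that RFC loads. Most of these genes are activated together by E2F factors at the G1/S border, whereas the mitotic genes are switched on later, in G2. The crypts of the small intestine renew the epithelium without pause, and adult hepatocytes are mostly quiescent.

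Values are TPM, transcript abundances which are scaled to gene length and to the sum of each library, so that levels can be set side by side between genes. The tissues were tabulated separately, and no test was made on a level between tissues. Library sums ran from 993160 to 997319 TPM in duodenum and from 983327 to 996427 TPM in liver. Read depth is unknown for TPM, so errors rest on the variation between libraries. SD is the spread over 3 libraries. SE is limma's moderated standard error of a fold change, which uses both groups and borrows from all genes tested. Fold changes are CORT against Veh on the log2(TPM + 1) scale, which understates the change of genes at low levels. A gene was tested if its mean reached 1 TPM in either group, and it was called if limma's adjusted p (Benjamini-Hochberg) was at most 0.05 and the change was over 1.5-fold. With 3 libraries against 3, an exact permutation test on a single gene cannot go below a two-sided p of 0.1. In whole tissue, fewer cells of a type and less RNA per cell cannot be told apart.

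Treatment and tissue were checked first. Fkbp5, a textbook glucocorticoid-induced gene, rose by 4.30 log2 units in duodenum (limma's adjusted p = 0.0045) and by 4.23 in liver (limma's adjusted p = 0.00178), in all 6 leave-one-out fits of each tissue. The hepatocyte markers, 10 genes, summed to between 107296 and 136270 TPM in liver, and the 18 absorptive enterocyte markers made up 3.66 to 7.39% of TPM in duodenum. Pancreatic acinar genes stood out in 2 of the duodenum libraries. They made up 4.59% of TPM in Veh 2 and 3.88% in Veh 3, against 0.252% in Veh 1 and 0.275 to 0.422% in CORT. Below, the members' median and the number of calls are given without both libraries. Values of single genes are not, and their leave-one-out ranges drop 1 library at a time.

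In vehicle tissue the replication genes were higher in duodenum than in liver in 42 of 43 cases. No such share over all genes is given here, so this order is not shown to be particular to the replication genes. The median over the 43 Veh means was 12.6 TPM in duodenum and 1.67 TPM in liver, and the median ratio was 5.71 over the 41 members for which a ratio was taken. Pcna, the sliding clamp, had the highest mean of the members in duodenum, at 68.9 TPM, and Orc1, the large subunit of the origin recognition complex, had the lowest, at 0.783 TPM. Orc1 was also at the bottom in liver, listed at 0, 0 and 0.01 TPM in Veh and at 0.02, 0 and 0 TPM in CORT. The exception to the order was Mcm10, which helps the helicase to fire. Its Veh mean was 53.9 ± 8.65 TPM (SD, n = 3) in liver against 10.0 ± 0.676 TPM in duodenum, and in liver it stood above all other members.

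**Figure D1:**
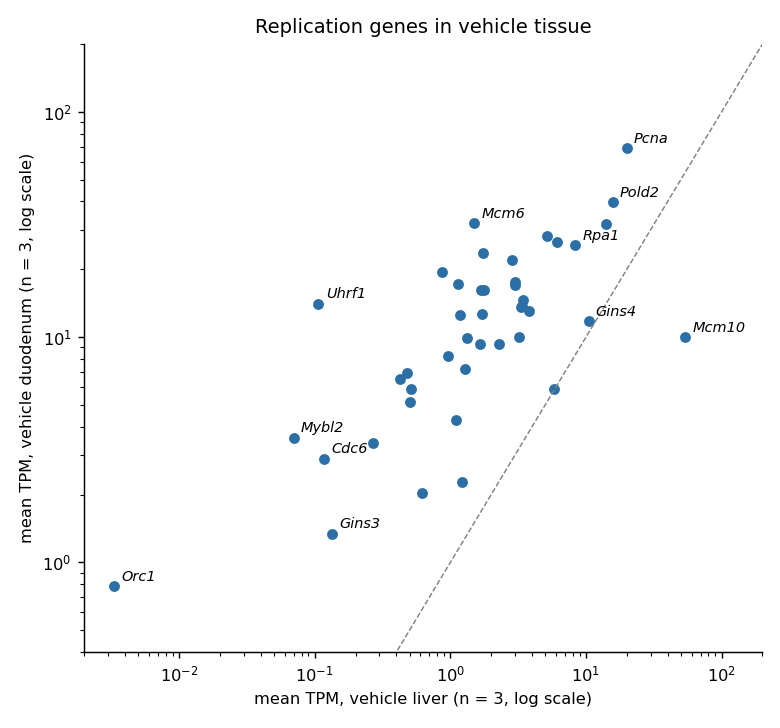
Mean TPM of the replication genes in vehicle duodenum (vertical axis, log scale) against vehicle liver (horizontal axis, log scale), 1 point per gene and 3 libraries per mean. All points except Mcm10 lie above the dashed line of equal level, and Mcm10 lies far to its right, with 53.9 TPM in liver.

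The regulatory DNA in front of these genes was searched for known words, with no test of enrichment. Promoter windows of the 250 bases before the transcription start were taken from RefSeq (GRCm38.p6, a build other than that of the expression tables), and 36 of the 43 members had 1 or more. The E2F words searched were TTTCCCGC, TTTCGCGC, TTTGCCGC and TTTGGCGC on either strand, and 9 of 36 members (25%) held a match, against 2.16% of 27025 genes with a window. Those members were Orc1, Cdc6, Mcm5, Mcm6, Mcm7, Gins3, Rfc3, Pola1 and Uhrf1. The CCAAT box, searched as CCAAT on either strand and known as a binding word of NF-Y, was found in 23 of 36 (63.9%), against 37.5% of all genes. The word TTTGAA of late cell cycle genes, known as the CHR, was held by 6 of 36 members (16.7%), against 18.3% of all genes. A match is a run of letters and not a mapped binding site. The windows of Uhrf1, Mcm6 and Mcm3 are shown because these genes were proposed as markers of the set. Uhrf1 was called in duodenum, and Mcm6 and Mcm3 had the most negative values of the helicase subunits there. The window of Rrm2 is shown because Rrm2 went the other way in liver. Lig1 and Mybl2, also called in duodenum, are not shown, as their windows held none of the words searched. Of the 2 Uhrf1 windows the one with an E2F word is printed. The other held a CCAAT box and no E2F word. Capitals mark E2F words and CCAAT boxes on either strand, and each window is written 5′ to 3′ on the strand of the gene.
Uhrf1, chr17:56304063-56304312 (GRCm38.p6, plus strand), 1 of its 2 windows: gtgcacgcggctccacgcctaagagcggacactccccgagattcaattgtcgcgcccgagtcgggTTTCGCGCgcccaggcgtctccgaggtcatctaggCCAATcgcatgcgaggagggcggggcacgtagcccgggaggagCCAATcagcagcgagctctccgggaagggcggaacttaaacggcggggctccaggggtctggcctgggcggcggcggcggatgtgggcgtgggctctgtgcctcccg
Mcm6, chr1:128359706-128359955 (GRCm38.p6, minus strand): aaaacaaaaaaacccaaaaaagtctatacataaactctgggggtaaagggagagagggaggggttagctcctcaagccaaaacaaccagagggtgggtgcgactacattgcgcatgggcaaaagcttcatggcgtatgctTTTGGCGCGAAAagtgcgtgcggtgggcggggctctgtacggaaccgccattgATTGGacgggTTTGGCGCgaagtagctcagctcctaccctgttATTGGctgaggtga
Mcm3, chr1:20820313-20820562 (GRCm38.p6, minus strand): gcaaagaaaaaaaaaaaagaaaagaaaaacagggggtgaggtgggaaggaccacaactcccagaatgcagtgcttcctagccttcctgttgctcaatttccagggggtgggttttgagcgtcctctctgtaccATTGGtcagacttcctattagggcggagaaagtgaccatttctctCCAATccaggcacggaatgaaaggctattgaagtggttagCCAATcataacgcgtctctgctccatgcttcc
Rrm2, chr12:24708004-24708253 (GRCm38.p6, plus strand): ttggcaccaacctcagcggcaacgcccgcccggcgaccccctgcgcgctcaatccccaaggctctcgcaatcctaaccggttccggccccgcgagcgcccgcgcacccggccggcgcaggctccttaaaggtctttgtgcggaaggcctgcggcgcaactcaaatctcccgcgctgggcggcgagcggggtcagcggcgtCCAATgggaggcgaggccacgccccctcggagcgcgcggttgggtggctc
In the Mcm6 window 2 E2F matches of opposite strand overlap and run together as 1 stretch of capitals, and 1 more E2F word lies nearer to the start. The Mcm3 window held 3 CCAAT boxes and no E2F word, and that of Rrm2 held 1 CCAAT box and no E2F word.

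In the duodenum the replication genes sat lower under CORT as a group, by a modest amount. Of the 42 members tested, 36 had a log2 fold change below 0, against 51.5% of all genes tested, and the members' median was -0.33 against -0.01 over all 13607 genes. For 19 members every CORT library was below every Veh library, which held for 14.3% of all genes, and for none was every CORT library above every Veh library, which held for 12.2% of all genes. By limma 3 members were called lower, Uhrf1, Mybl2 and Lig1, where 0.919% of all genes were called lower. None was called higher, where 1.23% of all genes were. At an unadjusted p under 0.05, 16 members were lower and 0 higher, against 10.5% and 8.72% of all genes. The median stayed between -0.39 and -0.27 when each library was left out in turn. With Veh 2 and Veh 3 both left out, an alternative chosen after seeing the data that leaves 1 Veh library against 3 CORT, it was -0.32, and after removal of the acinar genes it was -0.36. Leaving out single libraries brought the number of members called from 3 down to 0 or 1.

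Uhrf1 reads hemimethylated DNA at the fork and brings in the maintenance methyltransferase. In duodenum Uhrf1 (ENSMUSG00000001228) stood at 15.02, 13.83 and 13.43 TPM in Veh and at 7.5, 7.08 and 5.90 TPM in CORT. The groups lay far apart, with the highest CORT library well under the lowest Veh library. The change was -0.95 ± 0.13 log2 units (SE, limma's adjusted p = 0.0242). Dropping any of the 6 libraries left it between -1.01 and -0.86, with limma's adjusted p between 0.0523 and 0.0982, so the call needed all 6 libraries. CAF-1, the chaperone that lays histones on new DNA, has the subunits Chaf1a and Chaf1b. Chaf1b was at 7.36, 7.76 and 6.61 TPM in Veh and at 4.58, 3.08 and 4.06 TPM in CORT, again without overlap. Its change of -0.76 ± 0.16 log2 units was not called (limma's adjusted p = 0.0668). For Chaf1a the groups overlapped, and the change was -0.41 (limma's adjusted p = 0.303).

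Of the transcriptional regulators, Mybl2 encodes B-MYB, which works with the MuvB complex on cell cycle genes. Mybl2 (ENSMUSG00000017861) read 3.38, 4.03 and 3.34 TPM in Veh and 1.71, 1.42 and 1.41 TPM in CORT. The groups did not overlap, and the change was -0.87 ± 0.15 log2 units (SE, limma's adjusted p = 0.0437). In the 6 leave-one-out fits the change was between -0.92 and -0.80 with limma's adjusted p from 0.0848 to 0.151. The activating factors E2f1 and E2f2 had changes of -0.32 and -0.61 log2 units, with limma's adjusted p of 0.315 and 0.217. Both values point down, and neither gene was called. E2f1 was low throughout, from 2.22 to 2.32 TPM in Veh and from 1.47 to 1.85 TPM in CORT.

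Lig1, the ligase that seals Okazaki fragments, was the called member with the largest loss in TPM. Lig1 (ENSMUSG00000056394) was at 15.63, 18.54 and 17.55 TPM in Veh and at 10.37, 6.97 and 8.22 TPM in CORT. No CORT library reached the Veh range, and the change was -0.95 ± 0.16 log2 units (SE, limma's adjusted p = 0.0392). Among the 6 leave-one-out fits it was called only without CORT 1, and the change ranged from -1.09 to -0.83 with limma's adjusted p from 0.0489 to 0.143. The flap nuclease Fen1, which trims the fragments before ligation, had -0.35 log2 units (limma's adjusted p = 0.252). The single-strand binding subunits Rpa1 and Rpa2 had -0.30 log2 units each (limma's adjusted p of 0.259 and 0.324). In Fen1 and Rpa1 the groups did not overlap, whereas in Rpa2 they did.

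Across the MCM genes the duodenal values split. Mcm3 was at 24.90, 19.11 and 26.89 TPM in Veh and at 14.69, 11.55 and 14.50 TPM in CORT. Mcm6 was at 28.55, 34.89 and 32.80 TPM in Veh and at 21.21, 18.84 and 19.01 TPM in CORT. Mcm7 was at 28.21, 27.05 and 29.05 TPM in Veh and at 21.32, 16.28 and 18.90 TPM in CORT. For Mcm3, Mcm6 and Mcm7, and for Mcm4 and Mcm5 as well, all CORT libraries were below all Veh libraries. The changes were -0.75, -0.67 and -0.56 log2 units for Mcm3, Mcm6 and Mcm7, with limma's adjusted p of 0.0778, 0.051 and 0.0877. Mcm6 thus missed the threshold narrowly, and it was called after the acinar genes were removed, with a pseudocount of 0.1 and with the filter set on the mean of all libraries. Mcm5 had -0.48 (limma's adjusted p = 0.153) and Mcm4 -0.33 (limma's adjusted p = 0.328). Mcm2, which encodes another subunit of the same hexamer, did not go with them: it was at 12.79, 11.60 and 13.31 TPM in Veh and at 14.36, 11.45 and 20.14 TPM in CORT. Its groups overlapped and its change was 0.23 log2 units (limma's adjusted p = 0.557). Mcm10 differed by 0.12 log2 units (limma's adjusted p = 0.65). The sum of Mcm2 to Mcm7 was 119.8 to 130.8 TPM in Veh and 78.3 to 93.3 TPM in CORT.

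**Figure D2:**
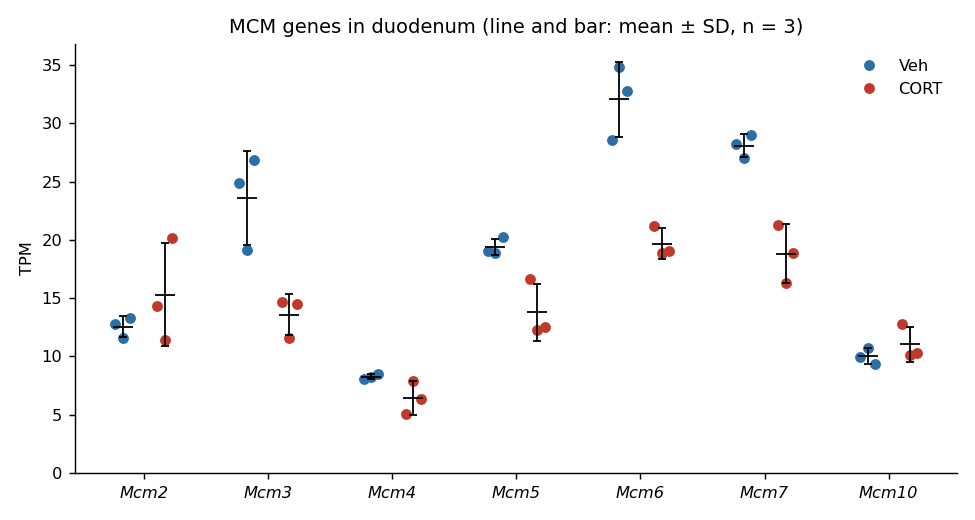
TPM of the 7 MCM genes in each duodenum library (points), with the mean and SD of 3 libraries per group (horizontal line and bar), Veh in blue and CORT in red. CORT points lie below all Veh points for Mcm3, Mcm4, Mcm5, Mcm6 and Mcm7, and overlap the Veh points for Mcm2 and Mcm10.

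The other partners of the helicase varied widely among themselves. Gins1, a GINS subunit, had the most negative change of all members, and its Veh libraries spread widely: 24.67, 7.55 and 18.68 TPM in Veh against 2.79, 3.15 and 3.71 TPM in CORT. The groups were apart, and the change of -1.96 ± 0.38 log2 units was not called (limma's adjusted p = 0.0568). Without Veh 2, the lowest Veh library, it was -2.42 and called (limma's adjusted p = 0.0165). Gins2 and Gins4 had -0.13 and 0.00 log2 units, and Gins3 had 0.52, none of them called (limma's adjusted p from 0.397 to 0.999). Cdc45 was at -0.08 log2 units (limma's adjusted p = 0.868). Gins1 and Gins3, subunits of the same complex, thus had values of opposite sign.

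At origin licensing, Cdc6, the loader of the helicase, was at 3.20, 2.81 and 2.64 TPM in Veh and at 1.35, 1.91 and 1.35 TPM in CORT. Its groups did not overlap, and the change was -0.62 log2 units (limma's adjusted p = 0.121). Its partner Cdt1 had -0.22 and Orc6 -0.05 (limma's adjusted p of 0.517 and 0.891). Orc1 was below the test limit in duodenum, at 0.62 to 0.93 TPM in Veh and 0.58 to 1.07 TPM in CORT. At the clamp, Pcna had 0.14 log2 units (limma's adjusted p = 0.611), and its loader subunits Rfc1 to Rfc5 lay between -0.46 and -0.08, none of them called. Rfc2 and Rfc3 were the loader subunits without overlap, with -0.26 and -0.44 log2 units. All 8 polymerase and primase genes were below 0, from -0.63 for Pold2 to -0.08 for Prim2 and Pola1, with 3 of 8 not overlapping and 0 called. Pole2, an accessory subunit of the leading-strand polymerase, was among those 3 with -0.46 (limma's adjusted p = 0.204).

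Ribonucleotide reductase, which makes deoxynucleotides, has a large subunit encoded by Rrm1 and a small subunit encoded by Rrm2. The pair pointed in opposite directions in duodenum. Rrm1 had -0.45 log2 units (limma's adjusted p = 0.245). Rrm2 was at 15.53, 17.55 and 19.84 TPM in Veh and at 59.65, 33.66 and 15.01 TPM in CORT, so 2 CORT libraries were above the Veh range and 1 was below it. The change of 0.80 ± 0.44 log2 units was not called (limma's adjusted p = 0.373). Tyms, thymidylate synthase, had -0.20 (limma's adjusted p = 0.513).

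**Figure D3:**
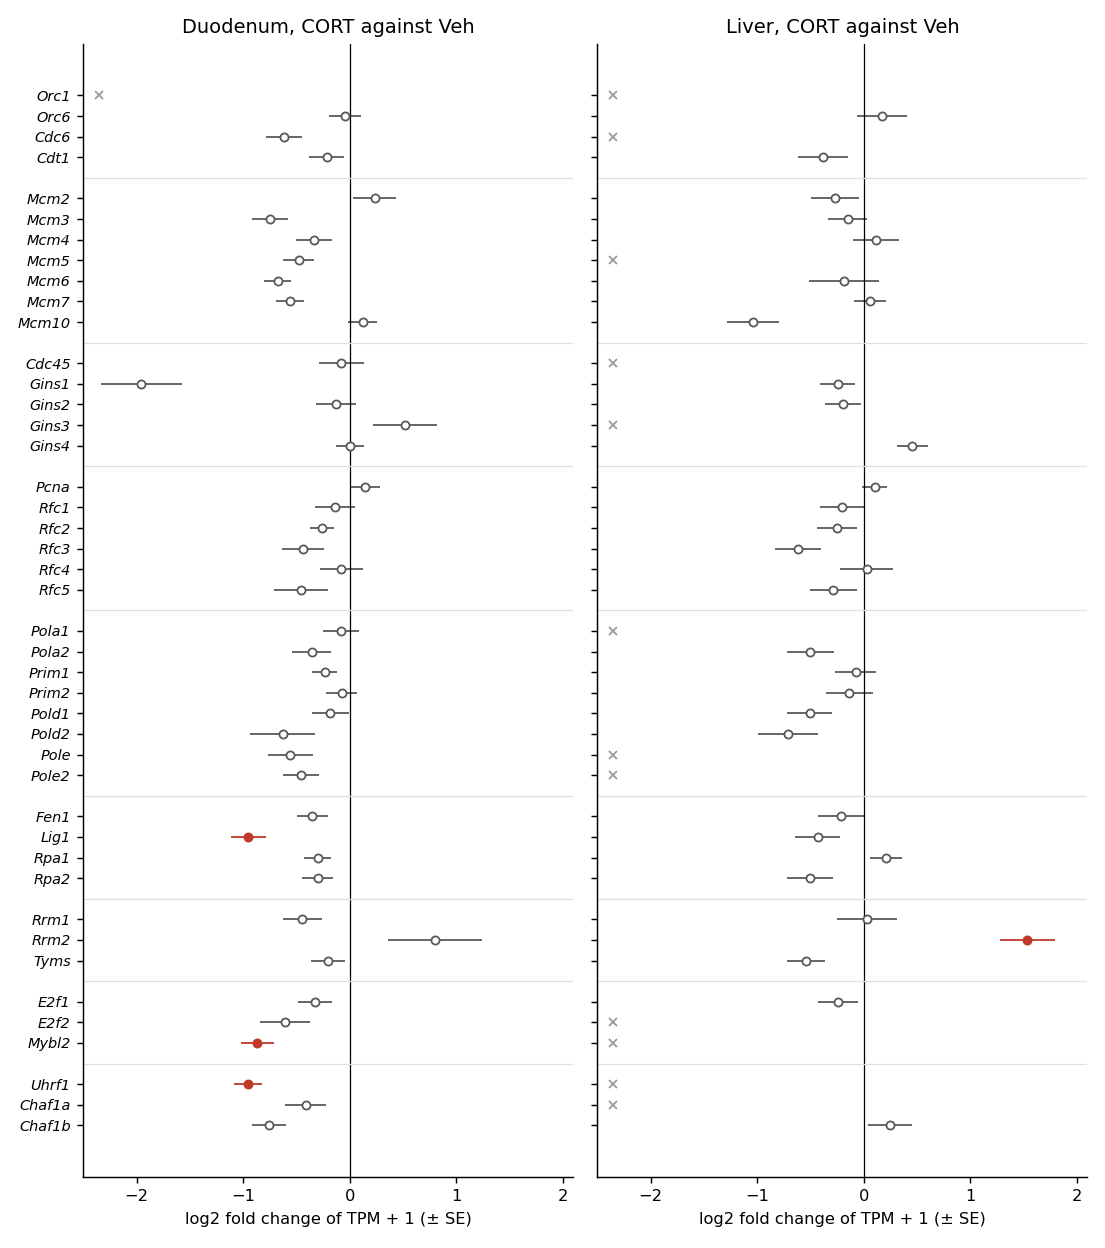
Log2 fold change of TPM + 1 (CORT against Veh, ± SE) for each member, grouped by role from licensing at the top to chromatin at the bottom, in duodenum (left) and liver (right). Filled red points were called by limma, open points were not, and grey crosses at the left edge mark members too low to test. Most duodenum points lie left of 0, and in liver Rrm2 is the called point, on the right.

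In the liver the same genes were low, and here too most of those tested were below 0. Of the 43 members 31 were tested, 25 of them through both groups, 5 only through Veh (Mcm2, Prim2, Pold1, Lig1 and E2f1) and 1 only through CORT (Mcm4). The other 12, among them Uhrf1, Mybl2, Cdc6 and Mcm5, had group means under 1 TPM, and 10 of the 12 were under 1 TPM in every liver library. A log2 fold change below 0 was found in 21 of the 31 tested, against 41.6% of all genes tested, and the median was -0.20 against 0.08 over all 11699 genes. Since 6 of the 31 entered through 1 group, these counts describe the tested genes only. Of the 25 that passed in both groups, 16 were below 0. No test was made of a difference between tissues for the members as a group. All CORT libraries were below all Veh libraries in 6 members, against 11.6% of all genes, and above them in 2, against 20.6% of all genes. Of those 6, Pold1, Lig1 and E2f1 passed the filter only through Veh, the group where they are higher, and Mcm10, Rfc3 and Tyms passed in both groups. No member was called lower, where 2.01% of all genes were, and 1 was called higher, where 4.91% of all genes were. At an unadjusted p under 0.05, 5 members were lower and 2 higher, against 9.06% and 16.9% of all genes. With libraries rescaled by median ratios, the number below 0 was 24 of 31, and the groups were apart in 12 members lower and 2 higher. Without single libraries they were apart in 6 to 13 lower and 2 to 3 higher. Groups separate more easily with 2 libraries against 3 than with 3 against 3. Shares over all genes are not given at these settings, so these counts are not set against the shares above.

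The called gene was Rrm2. In liver Rrm2 (ENSMUSG00000020649) was at 2.43, 2.08 and 4.44 TPM in Veh and at 12.83, 7.91 and 10.39 TPM in CORT. Every CORT library was above every Veh library, and the rise was 1.54 ± 0.26 log2 units (SE, limma's adjusted p = 0.0204). It was called without CORT 2, without Veh 2 or without Veh 3, and not without CORT 1, CORT 3 or Veh 1, with changes from 1.37 to 1.78 and limma's adjusted p from 0.0229 to 0.0778. Rrm1, its partner subunit, did not accompany it, with 3.58, 3.03 and 1.91 TPM in Veh and 4.10, 3.18 and 1.70 TPM in CORT (0.03 log2 units, limma's adjusted p = 0.953). Rrm1 turned to -0.04 with median-ratio scaling, so its sign is not settled. Tyms had -0.54 log2 units without overlap (limma's adjusted p = 0.119).

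Mcm10, the member with the highest level in liver, had the most negative change there. Mcm10 (ENSMUSG00000026669) was at 44.08, 60.23 and 57.52 TPM in Veh and at 35.15, 18.23 and 25.79 TPM in CORT. The groups did not overlap. The change of -1.04 ± 0.25 log2 units was not called (limma's adjusted p = 0.0531), but it was called with a pseudocount of 0.1 and with median-ratio scaling. The helicase subunits Mcm2 to Mcm7 were far lower in liver, with a sum of 9.70 to 14.1 TPM in Veh and 9.61 to 12.5 TPM in CORT. Gins4, a GINS subunit, was higher in every CORT library: 10.30, 10.69 and 10.34 TPM in Veh and 17.19, 14.89 and 12.43 TPM in CORT, without overlap. Its change was 0.46 log2 units (limma's adjusted p = 0.104). Rfc3 had -0.62 (limma's adjusted p = 0.131), Pold2 -0.71 (limma's adjusted p = 0.171), and Rpa2 -0.50 (limma's adjusted p = 0.195). Of 8 polymerase and primase genes, 3 were too low to test, and Prim2 and Pold1 passed the filter only through Veh, where they are higher. Pola2, Prim1 and Pold2 passed in both groups, with values below 0 that were not called. Cdt1 had -0.38 log2 units (limma's adjusted p = 0.358). E2f1, which passed the filter only through Veh, had -0.24 log2 units (limma's adjusted p = 0.461).

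Whether CORT acted unequally on a member in the tissues was tested by an interaction term over all 12 libraries. A gene entered if its mean reached 1 TPM in any group of either tissue. All but Orc1 of the 12 members too low to test in liver thus entered through duodenum, among them Uhrf1 and Mybl2. The 42 members tested are therefore not all measurable in both tissues. By this test 3 of 42 members had a more negative effect in duodenum than in liver, where 2.3% of 14806 genes did. For Uhrf1 the difference was -1.64 ± 0.18 log2 units (SE, limma's adjusted p = 0.000962), and it was called in all 12 fits that left out a library. In liver Uhrf1 was close to 0 but the groups did not overlap: 0.07, 0.18 and 0.07 TPM in Veh and 0.63, 0.79 and 0.93 TPM in CORT. Uhrf1 was therefore under the test limit in liver, and without the filter on low values its change there was 0.69 log2 units (limma's adjusted p = 0.0383). It was lower under CORT in 3 of 3 duodenum libraries and higher in 3 of 3 liver libraries. Its Veh mean was 14.1 TPM in duodenum and 0.107 TPM in liver.

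Chaf1b had a difference between tissues of -1.0 ± 0.24 log2 units (SE, limma's adjusted p = 0.0483). In liver Chaf1b was at 1.01, 1.48 and 1.37 TPM in Veh and at 1.25, 1.68 and 2.27 TPM in CORT, with overlap. Mybl2 had -0.86 ± 0.19 log2 units (SE, limma's adjusted p = 0.0364), and in liver no library of it was above 0.13 TPM, so that this value restates the duodenal change. Chaf1b was called in 3 of 12 leave-one-out fits (without CORT 1 of duodenum, CORT 1 of liver or Veh 2 of liver), between -1.14 and -0.87. Mybl2 was called in 2 of 12 (without CORT 1 or Veh 1 of duodenum), between -0.92 and -0.79. The difference was of the other sign for Mcm10, at 1.16 ± 0.30 log2 units, and was not called (limma's adjusted p = 0.058), although it was with median-ratio scaling (limma's adjusted p = 0.0409) and without CORT 1 of liver. That scaling ended the calls of Chaf1b and Mybl2 (limma's adjusted p of 0.0569 and 0.0563), and so did a pseudocount of 0.1 (limma's adjusted p of 0.0859 and 0.302). For Gins1 it was -1.71 ± 0.45 log2 units (limma's adjusted p = 0.0648), called only without Veh 2 of duodenum. Of the 31 members tested in both tissues, 19 were lower in both and 3 higher in both. Another 7 were lower in duodenum and higher in liver, and 2 the reverse. Among the 19, Prim2, Pold1, Lig1 and E2f1 passed the liver filter only through Veh, where they are higher. No such share over all genes is given here, so these counts describe the tested members only.

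**Figure D4:**
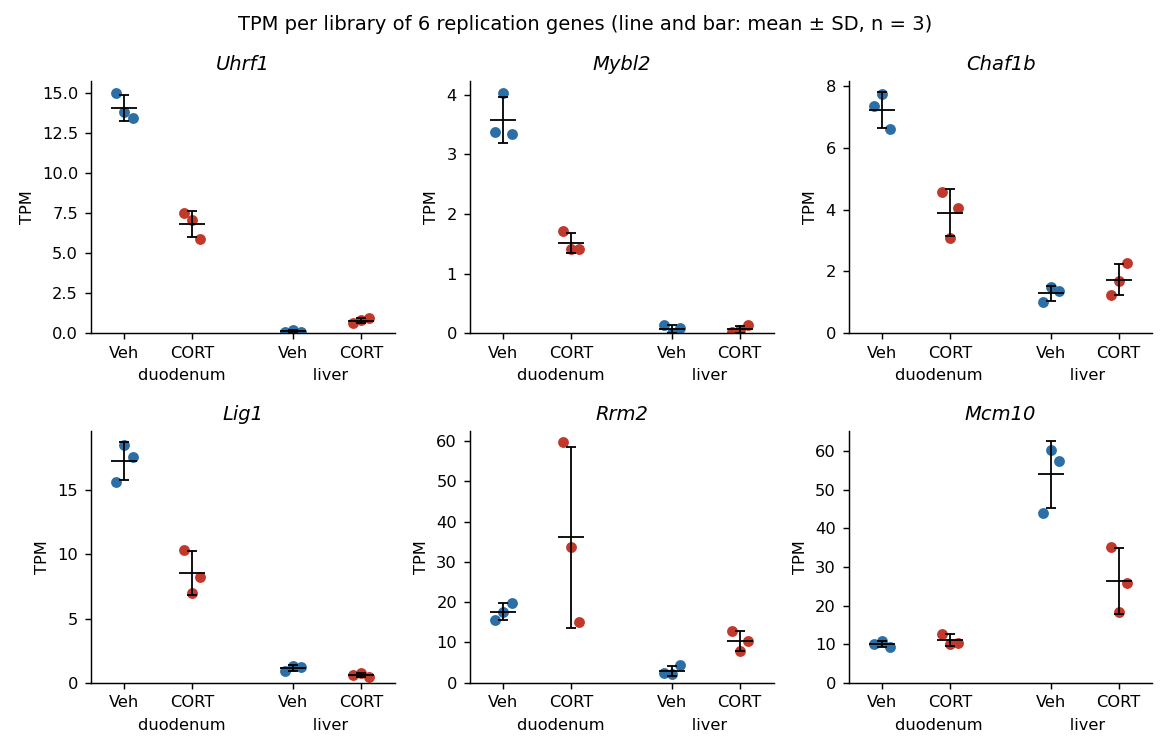
TPM per library (points) with mean and SD of 3 libraries (line and bar) for Uhrf1, Mybl2, Chaf1b, Lig1, Rrm2 and Mcm10, Veh in blue and CORT in red, duodenum on the left of each panel and liver on the right. The vertical scales differ between genes and start at 0. Uhrf1, Mybl2, Chaf1b and Lig1 are apart in duodenum, and Uhrf1, Lig1, Rrm2 and Mcm10 in liver. In liver Uhrf1 was under 1 TPM in all libraries, and Lig1 passed the filter only through Veh.

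Related genes outside the 43 were read from lists of other replication factors, nucleotide enzymes, fork chromatin and G1/S control, 79 of which were tested in duodenum. Of these 60 were below 0, against 51.5% of all genes, and the median was -0.17. All CORT libraries were below Veh in 16 and above in 5, against 14.3% and 12.2% of all genes, and none was called in either direction by limma. At an unadjusted p under 0.05, 14 were lower and 3 higher, against 10.5% and 8.72% of all genes. Among the nucleotide enzymes 14 of 16 were below 0, for example Tk1, thymidine kinase (-0.65, limma's adjusted p = 0.152). The 2 above 0 were Rrm2b (0.64, limma's adjusted p = 0.178) and Nme1 (0.46, limma's adjusted p = 0.153). All CORT libraries were below all Veh libraries in 6 of the 16, and above them in these 2. Clspn, which encodes claspin of the fork protection complex, had the most negative value of the 79, at -0.83 log2 units (limma's adjusted p = 0.0712). Clspn was read at 4.25, 3.31 and 4.07 TPM in Veh and 2.07, 1.29 and 1.89 TPM in CORT. Ccne1, cyclin E1 of the G1/S kinase, had -0.58 (limma's adjusted p = 0.153), and Cdc25a, the phosphatase that activates that kinase, 0.40 (limma's adjusted p = 0.216).

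The mitotic genes did not show this lean. Of 24 tested in duodenum, 10 were below 0 and 14 above, the median was 0.02, and for none did the groups stand apart. None was called by limma and none had an unadjusted p under 0.05. Mki67, the gene of the proliferation antigen Ki67, was at 13.6, 9.82 and 10.6 TPM in Veh and at 11.2, 14.9 and 7.99 TPM in CORT, which overlap fully (-0.02 log2 units, limma's adjusted p = 0.966). Crypt stem cell markers, 12 genes, had a median of 0.06 and 0 calls. The summed TPM of the mitotic list was 391.3 to 511.1 in Veh and 353.6 to 537.3 in CORT. The difference between lists was not tested.

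**Figure D5:**
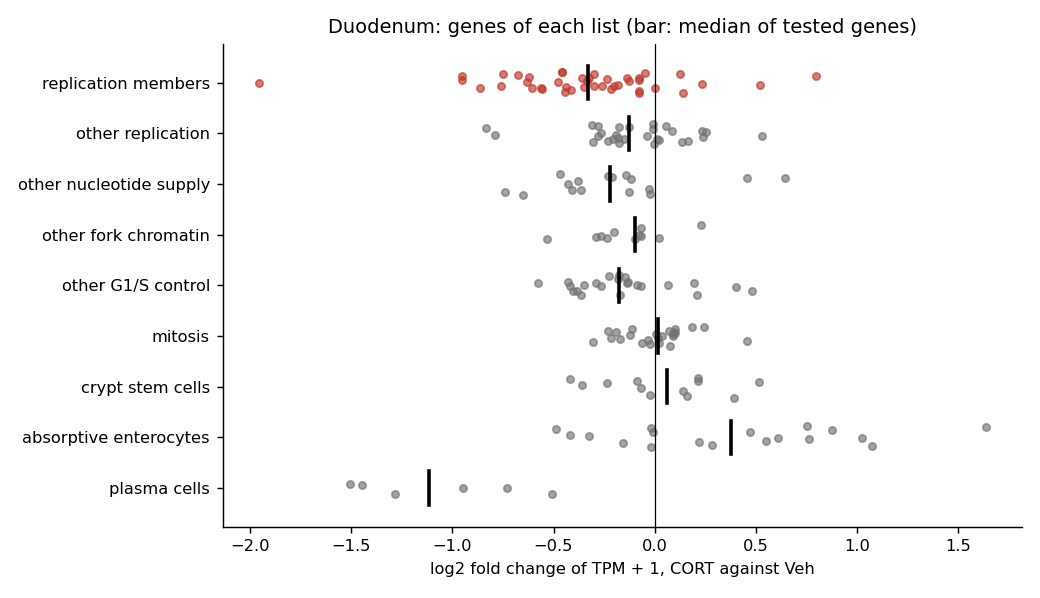
Log2 fold change of TPM + 1 in duodenum (CORT against Veh) of each tested gene (points), by gene list, with the median of each list as a black bar. The replication members centre at -0.33, the 4 lists of related genes between -0.22 and -0.10, the mitotic genes at 0.02, and the enterocyte and plasma cell markers at 0.38 and -1.12.

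Markers of other cells moved in the same duodenum libraries. The absorptive enterocyte list made up 6.38 to 7.39% of TPM in CORT and 3.66 to 5.40% in Veh, with 11 of 18 markers above 0 and Apob, which encodes the apolipoprotein of chylomicrons, called higher. Apoa1, Apoa4 and Fabp1, genes of lipid transport, made up 73.2 to 76.5% of that sum in CORT and 62.4 to 65.6% in Veh. The brush border markers Alpi, Anpep and Vil1 and the lipid enzyme gene Dgat1 had -0.49, -0.32, -0.16 and -0.42 log2 units, and none was called. All 6 plasma cell markers were below 0, with a sum of 346.1 to 654.5 TPM in CORT and 1030 to 1219 TPM in Veh. Sdc1 and Tnfrsf17 were called lower, where 0.919% of all genes were. Sdc1 and Xbp1 of this list do not read plasma cells alone. In liver they were at 64.8 to 130.9 and 77.7 to 208.8 TPM, where Jchain did not exceed 1.91 TPM and Tnfrsf17 0.08 TPM. Apob was called only in the fit without Veh 1 among the 6 leave-one-out fits, Tnfrsf17 only without CORT 3, and Sdc1 in none (changes from 1.48 to 1.90, from -1.42 to -1.15 and from -0.81 to -0.63). Germinal centre B cell markers, which mark lymphocytes that divide, summed to 27.6 to 32.96 TPM in CORT and 26.0 to 30.3 TPM in Veh, and B cell markers to 13.8 to 59.3 and 24.4 to 41.3 TPM. T cell markers summed to 73.4 to 83.6 TPM in CORT and 71.1 to 107.3 TPM in Veh, with 10 of 12 below 0 and 0 called. All 9 smooth muscle markers were below 0 with 0 called, at 410.0 to 609.0 TPM in CORT and 568.6 to 1072 TPM in Veh. None of the markers in these 6 lists was at 0 in all duodenum libraries. The part of the cell makeup in the members' values was not tested.

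In liver, 61 of the related genes were tested. Of these 38 were below 0, against 41.6% of all genes. All CORT libraries were below Veh in 15 and above in 7, against 11.6% and 20.6% of all genes. Dck and Cdk6, among the lower, passed the filter only through Veh, and E2f8, among the higher, only through CORT. The nucleotide enzymes were below 0 in 14 of 16, as in duodenum, with a median of -0.27. Of the 61 genes 1 was called higher and 1 lower, against 4.91% and 2.01% of all genes. Pole4, an accessory subunit of the leading-strand polymerase, was at 22, 33.7 and 28 TPM in Veh and at 127, 91.6 and 100 TPM in CORT, a rise of 1.90 log2 units (limma's adjusted p = 0.00492) that was called in all 6 leave-one-out fits. Rpa3, the small RPA subunit, was at 8.43, 8.97 and 10.2 TPM in Veh and at 4.01, 5.13 and 3.79 TPM in CORT and fell by 0.95 log2 units (limma's adjusted p = 0.0166), with the call lost without CORT 1 or Veh 3, at changes between -1.06 and -0.88 over the 6 leave-one-out fits. Cdkn1a, which encodes the p21 inhibitor of the G1/S kinases and binds PCNA, rose from 0.66, 2.00 and 1.65 TPM to 147, 98.1 and 130 TPM, by 5.72 log2 units (limma's adjusted p = 0.000518, called in all 6 leave-one-out fits). In duodenum Cdkn1a was at 117, 127 and 136 TPM in Veh and at 223, 154 and 158 TPM in CORT, without overlap and not called (0.47 log2 units, limma's adjusted p = 0.208). Of the 24 mitotic genes, Cdk1 alone was high enough to test in liver. B cell markers summed to 0.24 to 0.83 TPM in CORT and 3.14 to 9.85 TPM in Veh in that tissue, and their part in the liver values was not tested.

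Some members share exon sequence with neighbours, which bears on how reads could be assigned. In GENCODE M21, 14 of 43 members overlap an exon of another gene, 12 of them on the opposite strand, among them Lig1 with Zswim9, Mcm7 with Cops6 and Ap4m1, Rfc2 with Lat2, and Fen1 with Tmem258. Whether the libraries keep strand is not stated, so reads of such pairs may not be told apart. Processed copies of Pcna and Tyms are also listed in the tables.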

How the data were processed

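RNA-seq was made from duodenum and liver, 3 CORT and 3 Veh libraries each, as the labels give them. The authors used SeqPrep and Sickle for trimming, HISAT2 in orientation mode for alignment, StringTie for assembly and RSEM for quantification, on GRCm39 per the submitters' processing notes. The deposited tables hold TPM for single libraries and no read counts. Depth is therefore unknown, and errors rest on the variation between the 3 libraries per group, with limma's SE also drawing on all genes tested. A gene at 0 is described as listed at 0.

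Here log2(TPM + 1) was fitted per tissue with limma 3.58.1 (lmFit, eBayes with a trend; R 4.3.3) over all genes whose average reached 1 TPM in CORT or in Veh, with Benjamini-Hochberg adjustment. A call needed an adjusted p of at most 0.05 and over 1.5-fold change. The difference between tissues was an interaction term over 12 libraries, for genes whose mean reached 1 TPM in any group of either tissue. The study's own count test could not be used on TPM. Steps were checked on simulated data. Members and gene lists were chosen with earlier results of these data known. Values are given for Mcm3, Mcm6, Uhrf1, called members, and the member with the lowest p of each of 9 roles in each tissue. They are also given for called genes of the related lists. Of the members too low to test, only Orc1, Uhrf1 and Mybl2 have values printed. Other members are given by range or because they share a complex with a named member. Clspn, Tk1, Rrm2b, Nme1, Ccne1, Cdc25a, Mki67, Apob and other enterocyte markers, Sdc1 and Tnfrsf17 were chosen after their values were seen. Paneth cell, macrophage and erythroid lists were also summed. In duodenum they lay at 10967 to 29995, 173.5 to 267.2 and 93.6 to 179.5 TPM in CORT and at 9616 to 25775, 156.8 to 259.7 and 51.5 to 106.5 TPM in Veh. Promoter windows are those of RefSeq on GRCm38.p6, and of the members' 43 windows 35 end in a GENCODE M21 transcript of the gene.

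Alternatives were another pseudocount (0.1), other filters, a replicate block, median-ratio scaling, no trend, other thresholds, removal of acinar genes, each library left out, and both acinar-rich libraries left out.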

Additional observations from a re-analysis of the deposited data

Results flagged for a closer look

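The interaction term called a difference in the effect of CORT between duodenum and liver for 3 replication genes. The effect in duodenum minus that in liver was -1.64 log2 units for Uhrf1, -1.0 for Chaf1b and -0.86 for Mybl2. Uhrf1 was lower under CORT in duodenum and higher in liver, in every library of each tissue, but it was under 1 TPM in all liver libraries. Chaf1b was lower in duodenum and overlapped between groups in liver, and Mybl2 was near 0 TPM in all liver libraries, so that its value restates the duodenal change. With a pseudocount of 0.1, of these Uhrf1 alone was called. Chaf1b and Mybl2 were called in 3 and 2 of 12 fits that left out a library, and Uhrf1 in 12 of 12.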

How the results depend on the processing

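The duodenal median of the members kept its sign under all alternatives run, between -0.39 and -0.27, and so did that of the liver, between -0.27 and -0.15. Calls depended more on the settings. In duodenum 292 genes were called, and 52 with no filter, 62 with the replicate block, 1395 at an unadjusted p with the fold limit kept, 10 with both acinar-rich libraries left out (1 Veh library against 3 CORT) and 66 to 237 without single libraries. Members called there were 3, and 5 with a pseudocount of 0.1, 0 with no filter, 0 with the replicate block, 5 with acinar genes removed, 9 at an unadjusted p with the fold limit kept, 0 with both acinar-rich libraries left out and 0 to 1 without single libraries. In liver 810 genes were called, and 283 with no filter, 307 with the replicate block, 1808 unadjusted (here and below with the fold limit kept) and 247 to 831 without single libraries. Liver members called were 1, and 2 with a pseudocount of 0.1, 2 with median-ratio scaling, 4 unadjusted and 0 to 1 without single libraries. With no filter the liver call was Uhrf1 in place of Rrm2. Liver members without overlap were 8, and 14 with median-ratio scaling and 9 to 15 without single libraries, with no share over all genes given at these settings. The interaction called 533 genes, and 336 with no filter, 210 with the replicate block, 2139 unadjusted and 289 to 626 without single libraries. Its members called were 3, and 1 with a pseudocount of 0.1, 1 with the replicate block, 8 unadjusted and 1 to 3 without single libraries. With median-ratio scaling they were Uhrf1 and Mcm10. The cause of these shifts was not tested.

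Median-ratio scaling gave 543 genes higher and 468 lower in liver (53.7% higher), against 575 and 235 (71.0%), and 321 higher and 338 lower for the interaction (48.7%), against 193 and 340 (36.2%). Gins4 in duodenum turned from 0.00 to -0.034 with acinar genes removed and ranged from -0.085 to 0.064 without single libraries. Rrm1 in liver turned to -0.036 with median-ratio scaling and ranged from -0.17 to 0.29, and Mcm6 in liver from -0.36 to 0.13. Of the other comparisons of single named genes with alternatives, 545 kept direction and call, 58 lost the call and 21 gained it. The labels do not say whether same-numbered libraries, also those of duodenum and liver, come from 1 mouse, and no pairing was seen. Deviations of same-numbered CORT and Veh libraries correlated at -0.00 to 0.07 in duodenum and -0.12 to 0.04 in liver, those of duodenum and liver at -0.08 to 0.03 in CORT and -0.00 to 0.03 in Veh, 2 of 3 duodenum and 0 of 3 liver CORT libraries correlated best with their own number, and the replicate block gave the counts above. Low values limit the liver most, where 12 members were too low to test.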
